A study of Mus musculus with 16 samples.

Results

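Megakaryocyte progenitors of the bone marrow (BM) were selected on their own transcripts from 6 single-cell libraries of sorted lineage-negative, c-Kit-positive (c-Kit+) cells. A cell was taken if it held at least 2 UMIs of Pf4 and at least 1 of Itga2b, no more than 2 of Klf1 and Car1 together and no more than 1 of Hlf, Mecom and Procr together. A UMI, or unique molecular identifier, counts 1 captured mRNA molecule. The rule found 538 of 28155 kept cells, a kept cell being one with 201 to 5999 detected genes and at most 10% mitochondrial UMIs. The mice were female WT BALB/c animals in 3 groups of 2 libraries each. The WT group bore no tumor and was untreated, as the paper describes it. Comparisons with WT therefore take in tumor and oral dosing together. The vehicle and IACS-70654 groups both carried 2208L, a Trp53-null mammary tumor transplanted into WT hosts at 7 to 8 weeks of age, and received methylcellulose vehicle or IACS-70654, an oral inhibitor of the CBP/P300 bromodomain given on a schedule of 3 days on and 2 days off. The labels state 7 days of treatment and the paper 6 days with 5 doses for BM, with BM taken 24 hours after the last dose. Cells of 3 mice were pooled for each sample, so that the p-values below measure the spread between libraries, which may be technical.

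Megakaryocytes are the large polyploid cells of the marrow that shed platelets into the blood. Their progenitors arise from stem and multipotent cells or from precursors shared with the erythroid lineage, under the control of the factors GATA1, GATA2, RUNX1, FLI1 and NFE2. As they mature, they replace ordinary division by endomitosis, switch on the glycoproteins by which platelets bind von Willebrand factor, fibrinogen and collagen, and fill alpha granules with Pf4, Vwf, Selp and other cargo. Itga2b pairs with Itgb3 to form the platelet fibrinogen receptor.

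The 6 libraries held between 27427163 and 68415534 UMIs and between 2836 and 7517 kept cells. Kept cells had a median of 7810 to 8061 UMIs in WT, 8671 to 9512 in vehicle and 6712 to 6954 in IACS-70654. No cell barcode occurred in more than 1 of the c-Kit+ libraries (0 in 15 pairs). Over all pairs with the 6 CD45+ libraries of the same groups, 263 were shared. The samples were multiplexed, and whether they were sequenced together was not tested. Vehicle replicate 2 gave 27 of the progenitors and the other libraries 72 to 145 each, so its values are the least precise.

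The label was checked against markers the rule did not use. After every cell was thinned to 3000 UMIs, 14 of 18 other megakaryocyte markers were detected in a larger share of the selected cells than of neutrophil-committed cells in each of the 6 libraries. The latter hold 10 or more UMIs of Mpo, Elane, Prtn3 and Ctsg, with the members left out for this check. They should lack platelet genes, so their shares were taken as the background. They had median depths of 8878 to 10591 UMIs, against 5639 to 9493 in the selected cells. Cd9, a tetraspanin of the platelet surface, was detected in 74.3% to 84.2% of selected cells and in 8.42% to 12.1% of neutrophil-committed cells. Vwf, the alpha granule protein that tethers platelets to collagen, was detected in 19.7% to 53.8% against 0.351% to 0.746%. Cavin2 was detected in 38.6% to 61.8% against 0.458% to 1.12%, and Gp9, a subunit of the von Willebrand factor receptor, in 14.3% to 34.6% against 0.263% to 0.919%. Unthinned, Gp9 was detected in 27.6% to 59.3% of the selected cells. Gp1ba, another of the 18 markers, was detected in 0% to 6.32% against 0.0253% to 0.373%, and was higher in the selected cells of only 4 of the 6 libraries. Late markers were scarce. Tubb1, the tubulin of platelet formation, had 0 UMIs in every member, Gp6 reached at most 1.05% of thinned members and Ppbp at most 2.25%. Kit itself, on whose protein the cells were sorted, was detected in 11.5% to 21.1% of thinned members and in 21.3% to 32.1% of neutrophil-committed cells.

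Levels against all other c-Kit+ cells are given as a description, since the same cells were selected on related transcripts. Of the genes with at least 50 CPM (UMIs of a gene per 1000000 UMIs of the summed cells) in the members, the largest ratios to the other cells belonged to Clec1b (57.1-fold), a platelet receptor for podoplanin, Pde3a (41.2-fold), Cavin2 (37.8-fold), Mrvi1 (37.1-fold) and Treml1 (36.6-fold), an alpha granule receptor. Chsy3, Vwf, Ehd3, Rbpms2, Slc35d3, Gucy1a1, Trpc6, Itgb3, Gp9 and Myom1 followed, down to 19.5-fold. The transcription factors stood out less: Gata1 was at 45.3 CPM in the members, 32.0 CPM in the other cells and 84.0 CPM in erythroid progenitors taken by Klf1 and Car1. Of the genes that made the rule, Pf4 averaged 8005 CPM in the members and 148 CPM in the other cells, while Itga2b averaged 283 CPM in the members.

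The members formed a gradient in Pf4, from 2 to 298 UMIs per cell. The WT libraries had medians of 41 and 34.5 UMIs, the vehicle libraries 62 and 50 and the IACS-70654 libraries 31 and 43. Just outside the limit stood 154 cells with 1 Pf4 UMI, in which Gp9 was at 8.65 CPM and Cavin2 at 23.3 CPM. Just inside it stood 33 cells with 2 Pf4 UMIs, in which Gp9 was at 24.6 CPM and Cavin2 at 113 CPM. The neutrophil granule gene Mpo was at 2462 CPM outside and 1720 CPM inside. Across the members, Vwf was at 26.8 CPM in cells with 2 to 9 Pf4 UMIs, 142 CPM with 10 to 49 and 211 CPM with 50 or more. Mpo showed no common order in the groups, with 263, 851 and 220 CPM over the same classes in WT, 2460, 342 and 597 CPM in vehicle and 1976, 545 and 526 CPM in IACS-70654. Cells with 2 to 9 Pf4 UMIs made up 15.6% and 15.3% of the WT members, 10.2% and 14.8% of the vehicle members and 26.9% and 22.6% of the IACS-70654 members. These classes are raw UMIs of a gene of the rule, and the IACS-70654 members were shallower (medians of 5639 and 5900 UMIs, against 8251 and 9493 UMIs in vehicle). A lower Pf4 level and a lower depth cannot be told apart in these shares, which are given as a description.

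**Figure D1:**
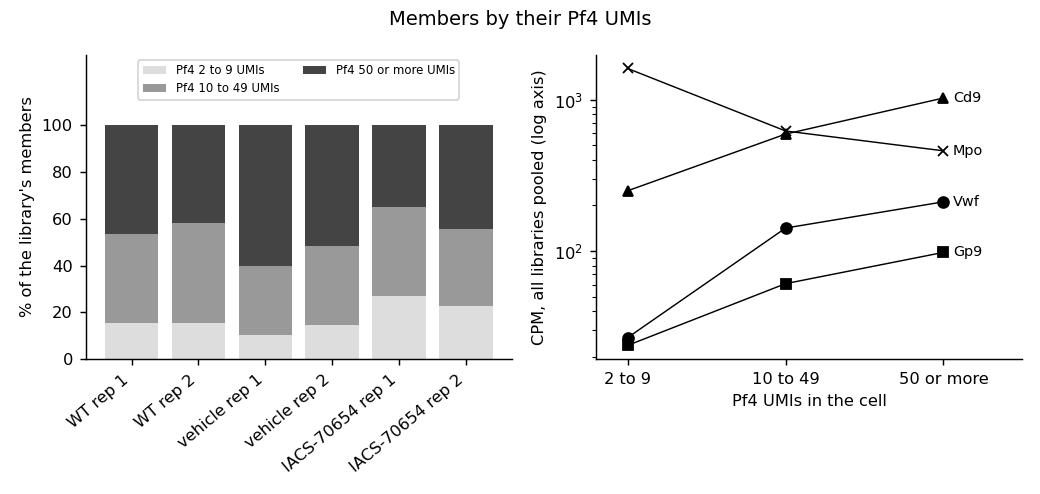
Left, the share (%) of each library's megakaryocyte progenitors in 3 classes of Pf4 UMIs per cell. Right, CPM (log axis) of Vwf, Gp9, Cd9 and Mpo in each class with all 6 libraries pooled. Vwf, Gp9 and Cd9 are higher in cells with more Pf4, the fall of Mpo in the pool is not steady within WT or vehicle, and the 2 IACS-70654 libraries have the largest pale segments, 26.9% and 22.6%.

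The first question was how many such progenitors each marrow held. In WT marrow they made up 2.32% and 2.37% of kept c-Kit+ cells. The vehicle libraries held 1.49% and 0.952% and the IACS-70654 libraries 1.93% and 2.46%. Both vehicle libraries were below all others, and the IACS-70654 libraries lay on either side of the WT pair. The exact 95% binomial interval, which covers counting error only, ran from 0.628% to 1.38% in vehicle replicate 2 and from 1.63% to 2.27% in IACS-70654 replicate 1. The mean share was lower by 1.12 percentage points in vehicle than in WT (ratio 0.521) and higher by 0.970 points in IACS-70654 than in vehicle (ratio 1.79). An exact 2-sided permutation test gave p = 0.33 for both, which is the smallest value that 2 libraries against 2 allow, and p = 1 for IACS-70654 against WT. With the rule applied after every cell was thinned to 3000 UMIs, which evens the depth, the shares were 1.69% and 1.95% for WT libraries, 1.26% and 1.13% for vehicle libraries and 1.45% and 1.83% for IACS-70654 libraries. The differences were then smaller, -0.621 points for vehicle against WT and 0.446 points (ratio 1.37) for IACS-70654 against vehicle (exact permutation p = 0.33 for each, the smallest that 2 against 2 allows). Thinning also changed which cells were chosen, as the upper limits were then applied to fewer UMIs. Members by the raw counts were 45 of 62 and 37 of 56 of the cells so chosen in WT. They were 52 of 78 and 15 of 30 in vehicle and 81 of 98 and 63 of 71 in IACS-70654. The shares are taken within a sort on c-Kit in which neutrophil-committed cells were 49.5% and 47.4% of the kept WT cells, 71.6% and 70.0% of the vehicle cells and 54.6% and 54.4% of the IACS-70654 cells. With such cells left out of both counts, the shares were 3.47% and 3.57%, 3.65% and 2.12%, and 3.60% and 4.62%, and vehicle then overlapped WT and IACS-70654.

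The limit on stem-cell genes removed a share of the cells that differed between the groups. Cells with Pf4 and Itga2b alone were 4.03% and 4.18% of the kept WT cells, 2.78% and 2.29% of the vehicle cells and 2.77% and 3.20% of the IACS-70654 cells. The limit on Hlf, Mecom and Procr, regulators and a receptor of stem cells, took away 37.8% and 40.9% of the WT cells, 45.4% and 55.4% of the vehicle cells and 27.9% and 20.3% of the IACS-70654 cells. Without the limits, the IACS-70654 mean was 1.17 times that of vehicle with overlapping libraries (exact permutation p = 0.667), and 0.727 times that of WT. The IACS-70654 mean lay between those of vehicle and WT with and without the limits, and the stem-cell limit was not dropped alone.

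**Figure D2:**
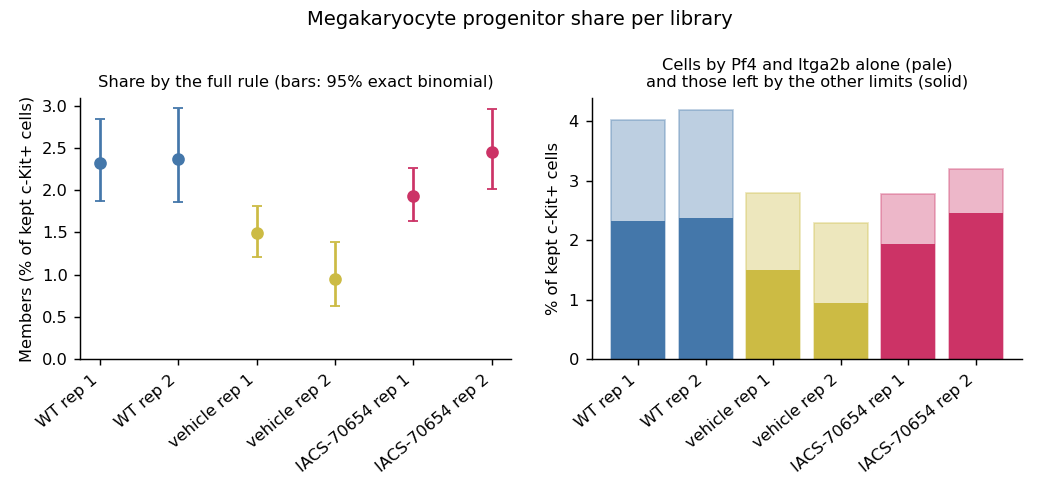
Left, megakaryocyte progenitors as a percentage of kept c-Kit+ cells in each of the 6 libraries, with exact 95% binomial intervals. Right, the cells by Pf4 and Itga2b alone (pale) and those left by the limits on erythroid and stem-cell genes (solid). The vehicle libraries are lowest on the left at 1.49% and 0.952%, whereas on the right the pale bars of vehicle and IACS-70654 touch at 2.78% and 2.77%.

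The members of the IACS-70654 libraries held fewer UMIs. Their medians were 5639 and 5900 UMIs, against 7787 and 7550 UMIs in the WT libraries and 8251 and 9493 UMIs in the vehicle libraries, with no overlap between groups (exact permutation p = 0.33, the smallest possible, in each comparison). Other c-Kit+ cells were also shallower there. The median of members over that of other cells was 0.803 and 0.874 in IACS-70654, 0.965 and 0.963 among WT libraries and 0.865 and 1.10 among vehicle libraries. The parts of sequencing depth and of RNA content per cell in these values were not tested.

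Cell cycle genes were compared because megakaryocyte progenitors go through repeated S and G2/M phases. In members thinned to 3000 UMIs, the share scored as S or G2/M was 64.0% and 57.1% of WT members, 72.6% and 73.1% of vehicle members and 51.8% and 56.8% of IACS-70654 members, with 5 to 19 members per library near a limit between phases. The G2/M share was 30.3% and 27.1%, 57.9% and 53.8%, and 28.5% and 42.1%, and the S share 33.7% and 30%, 14.7% and 19.2%, and 23.4% and 14.7%. The vehicle members thus had the largest G2/M share and the WT members the largest S share. The exact permutation p was 0.33 in each comparison of the combined share, the smallest possible. Thinned to 5000 UMIs, which leaves out 56 and 40 IACS-70654 members, the combined share was 73.1% and 64.5%, 77.0% and 75.0%, and 66.3% and 68.2%, and IACS-70654 overlapped WT. Without thinning it was 71.1% and 62.5%, 77.6% and 70.4%, and 52.4% and 53.8%, and vehicle overlapped WT (exact permutation p = 0.667). Summed over the list in all members, G2/M genes were at 7136 and 6452 CPM in WT, 9024 and 8484 CPM in vehicle and 7160 and 10126 CPM in IACS-70654. By this measure the 2 IACS-70654 libraries fell on either side of vehicle.

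Next, gene levels were compared between groups on UMIs summed over the members of each library, with edgeR's quasi-likelihood test across 7958 genes. A gene was called at an adjusted p under 0.01 with a log2 change over 0.5 in size, and levels of single genes beside these tests are CPM scaled by TMM, edgeR's correction for library composition, while sums over lists are CPM without it. The 3 comparisons share libraries, so they are not independent of each other. Few marker genes of other lineages passed the filter on low counts: 6 of 14 neutrophil and monocyte, 4 of 16 erythroid, 1 of 4 eosinophil and 0 of 7 lymphoid genes. Of those tested on these lists, 0 were called in the 3 comparisons. Of 8 basophil and mast cell genes 3 were tested, and calls were made there. Mcpt8 was called as a rise in vehicle against WT and as a fall in IACS-70654 against vehicle. Cpa3 was called as a rise in IACS-70654 against WT. Of 13 genes of stem and multipotent cells 9 were tested. Angpt1 alone was called among them, as a fall in vehicle and in IACS-70654 against WT. Members with 10 or more neutrophil granule UMIs were 15.2% and 14.2% in IACS-70654, against 24.4% and 20.8% among WT libraries and 30.6% and 33.3% among vehicle libraries. The 14 neutrophil and monocyte genes, all detected, summed to 1317 to 2351 CPM in WT, 2226 to 4166 CPM in vehicle and 1501 to 4316 CPM in IACS-70654. The 16 erythroid genes, all detected, summed to 310 to 347 CPM, 276 to 310 CPM and 298 to 325 CPM. The 8 basophil and mast cell genes, all detected, summed to 45.7 to 48.1 CPM, 87.0 to 235 CPM and 92.7 to 93.0 CPM. Of the UMIs of Mcpt8 and Cpa3 alone, 1 cell held 81.1% in vehicle replicate 1, the library at 235 CPM. For the same 2 genes, 1 cell held 68.8% in IACS-70654 replicate 1 and 2 cells 32.5% and 25% in IACS-70654 replicate 2. The 7 lymphoid genes, with Cd3e at 0, summed to 8.31 to 9.96 CPM, 7.57 to 10.2 CPM and 18.3 to 22.1 CPM. The 4 eosinophil genes, all detected, reached 21.4 CPM at most. The 13 genes of stem and multipotent cells, all detected, summed to 1580 to 1838 CPM in WT, 1298 to 1314 CPM in vehicle and 1290 to 1389 CPM in IACS-70654, most of it Angpt1.

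Between vehicle and WT few genes were called: 8 of 7958 (0.101%), 3 up (0.0377%) and 5 down (0.0628%), while 612 had an unadjusted p under 0.05. Ube2c, the ubiquitin-conjugating enzyme of mitotic exit, was at 246 and 204 CPM in WT and 387 and 482 CPM in vehicle, and rose by a log2 change of 0.90 ± 0.17 (SE, adjusted p = 0.0040). Arl6ip1 rose by 0.73 ± 0.14. Apoe, the lipid carrier apolipoprotein E, was at 361 and 324 CPM in WT and 176 and 256 CPM in vehicle, a change of -0.78 ± 0.15 (adjusted p = 0.0074). Rgs1, a brake on G protein signaling, changed by -1.17 ± 0.21, the immediate early factor Jun by -0.68 ± 0.12, and Angpt1, a ligand of the Tie2 receptor, by -0.59 ± 0.09. Gm47283, a predicted gene named after its values were seen, changed by -1.23 ± 0.22, a call lost without WT replicate 1 or vehicle replicate 1. The groups did not overlap for any of these genes. Leaving out 1 library lost most of these calls: Apoe and Jun without WT replicate 1 (-0.69 and -0.63) or vehicle replicate 1 (-0.43 and -0.70), Rgs1 without the same libraries (-1.02 and -0.94), Arl6ip1 without these or vehicle replicate 2 (0.67 to 0.79) and Angpt1 without WT replicate 2 (-0.49), while Ube2c was called in all 6 cases. Ube2c was not called with DESeq2 (0.93, adjusted p = 1), with members thinned before summing (1.00, adjusted p = 0.030) or with at least 5 Pf4 UMIs, a limit chosen after seeing the data (0.88, adjusted p = 0.017), and 0 genes rose under any of these 3 settings. With at least 5 Pf4 UMIs 0 of the 8 were called. With DESeq2 Apoe, Rgs1, Arl6ip1 and Jun were not called, with members thinned before summing Apoe, Rgs1 and Arl6ip1, without members holding neutrophil granule UMIs Apoe, Rgs1 and Angpt1, with members chosen after thinning Rgs1, and with Pf4 and Itga2b alone Angpt1. Arl6ip1 was not called without members rich in immunoglobulin or basophil and mast cell UMIs, nor Apoe with the replicate block (-0.75, adjusted p = 0.018) or with only WT and vehicle fitted. Mcpt8, a protease gene of the basophil and mast cell list, was called at 2.49 but 63 of its 76 UMIs in vehicle replicate 1 came from 1 cell. Without vehicle replicate 1 its change was -0.01. The count of calls was 16 without WT replicate 2.

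No gene of the lists of platelet surface receptors, megakaryocyte transcription factors, cytoskeleton or platelet signaling was called between vehicle and WT. Of 19 platelet surface genes tested, 0 were called, with a median log2 change of 0.27 and 16 above 0, against 49.9% above 0 over all genes. Of 14 alpha granule genes, Angpt1 alone was called. Of 50 G2/M genes, Ube2c alone was called, with a median of 0.43 and 47 above 0, and of 42 S phase genes 0 were called, with a median of -0.30 and 5 above 0. Vwf, at 187 and 176 CPM in WT and 258 and 214 CPM in vehicle, changed by 0.42 ± 0.15 with an adjusted p of 0.42. Data were simulated for this comparison with the same spread between libraries for all 7958 genes. Of the 200 genes changed by 1 on the log2 scale, 36% were called, so a change of that size was often missed there. Genes with a wider spread were not simulated.

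IACS-70654 against vehicle asks what the inhibitor changed in tumor-bearing mice. In the megakaryocyte progenitors 210 of 7958 genes were called (2.64%), 82 up (1.03%) and 128 down (1.61%). Of the lists of platelet surface and granule genes, Vwf, Selp, Gp5, Treml1, Ptger3 and Slamf1 fell and Cd9 and F2r rose. Rab27b, Gata2, Meis1 and Cdk6, of other lists, rose as well. The count was 91 without vehicle replicate 1 and 125 without IACS-70654 replicate 2. With every member thinned to 3000 UMIs before summing, which evens the depth per cell, 81 of 5095 genes were called.

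Vwf was at 258 and 214 CPM in the vehicle libraries and at 75.2 and 100 CPM with IACS-70654, 2.81-fold lower (log2 change -1.49 ± 0.16, adjusted p = 2.4e-08). The WT libraries, at 187 and 176 CPM, lay between them. Selp, the P-selectin that platelets move to their surface when activated, was at 40.4 and 58.3 CPM in vehicle and 13.7 and 13.9 CPM with IACS-70654 (-1.70 ± 0.36, adjusted p = 0.0016). Gp5, of the von Willebrand factor receptor complex, was at 63.5 and 105 CPM against 29.3 and 29.2 CPM (-1.34 ± 0.28, adjusted p = 0.0010). Both genes stood lower in the IACS-70654 libraries than in any vehicle or WT library. Gp9, of the same complex as Gp5, was at 86.6 and 120 CPM against 51.8 and 54.2 CPM, a change of -0.86 ± 0.23 that missed the threshold (adjusted p = 0.014), and Gp1bb, the complex's beta subunit, was at 24.2 and 19.4 CPM against 17.6 and 25.0 CPM (-0.14 ± 0.40, adjusted p = 0.89).

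Treml1 was at 137 and 167 CPM in vehicle and 62.5 and 89.0 CPM with IACS-70654 (-0.97 ± 0.20). Slamf1, a lymphocyte and stem-cell receptor also known as CD150, was at 75.1 and 66.0 CPM against 33.2 and 33.4 CPM (-1.11 ± 0.26), and Ptger3, a prostaglandin E2 receptor, at 71.6 and 77.7 CPM against 35.2 and 34.8 CPM (-1.06 ± 0.25). Cd9 was at 663 and 703 CPM in vehicle and 881 and 1065 CPM with IACS-70654, and rose by 0.52 ± 0.10 (adjusted p = 0.00070). F2r, a thrombin receptor, was at 68.1 and 62.2 CPM against 118 and 149 CPM and rose by 0.99 ± 0.21 (adjusted p = 0.0011). Itgb3 was at 125 and 136 CPM against 180 and 196 CPM, a change of 0.55 ± 0.18 that missed the threshold (adjusted p = 0.042). Of the 24 platelet surface genes 19 were tested, 1 rose, 5 fell (4 of them named here) and 13 were not called, with a median of -0.14. Of 17 alpha granule and secreted genes, among which F2r was listed, 14 were tested, F2r rose and Vwf and Selp fell, with a median of -0.41. The median over all genes was 0.01. Over 19 settings the medians ranged from -0.47 to -0.05 for the surface genes and from -0.42 to -0.17 for the granule genes.

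**Figure D3:**
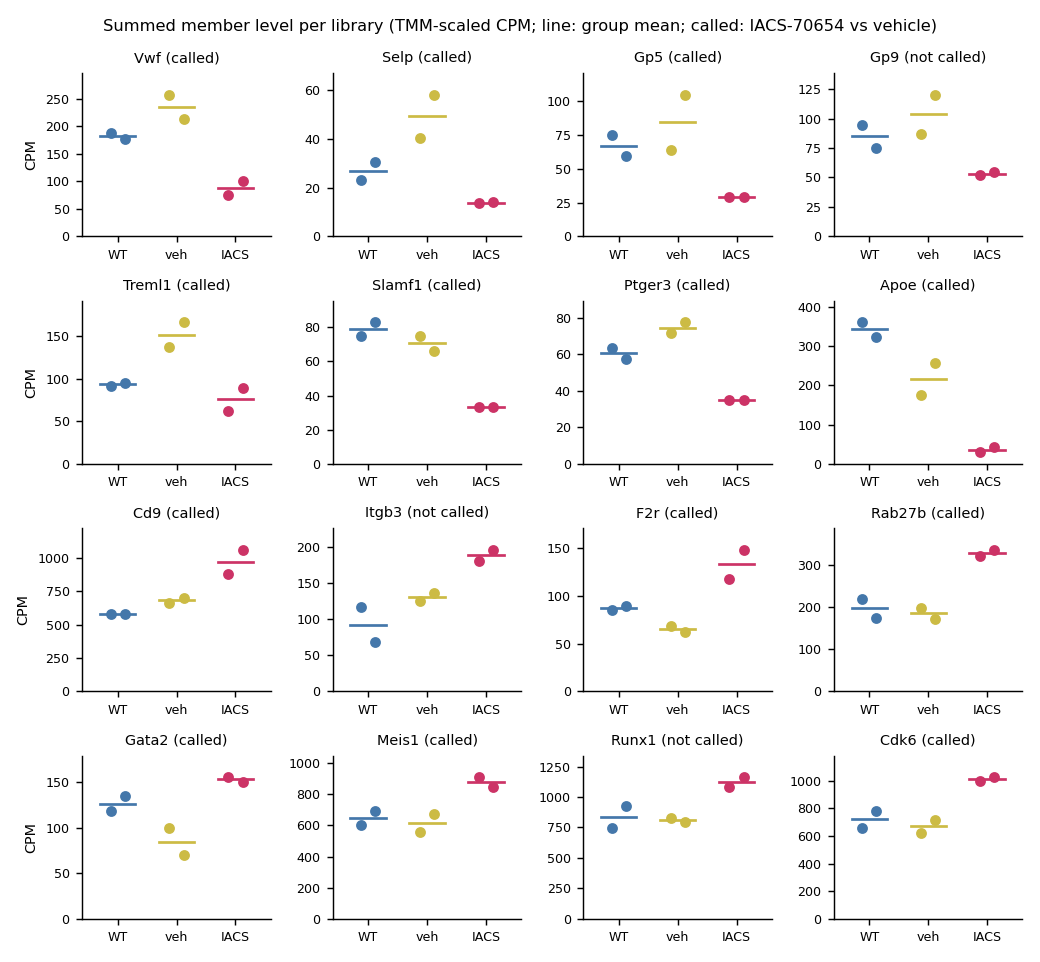
TMM-scaled CPM of 16 genes in the summed megakaryocyte progenitors of each library, with points for the 2 libraries of WT, vehicle (veh) and IACS-70654 (IACS), lines for group means and every axis from 0. Called refers to IACS-70654 against vehicle. The upper 2 rows hold Apoe and surface and granule genes that are lowest in IACS-70654, such as Vwf at 75.2 and 100 CPM, and the lower 2 rows genes that are highest there, such as Cd9 at 881 and 1065 CPM.

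These calls did not all stand without each library. Vwf was called without any of the 6 libraries in turn, at -1.70 to -1.29. Gp5 and Treml1 lost their calls without IACS-70654 replicate 1 (-1.35 and -0.72), and Selp without either IACS-70654 library (-1.69 and -1.71). Slamf1 was lost without vehicle replicate 1 or either IACS-70654 library (-1.13 to -0.97) and Ptger3 without any of the 4 libraries compared (-1.14 to -1.04). Cd9 and F2r were lost without vehicle replicate 1 (0.48 and 1.09) or IACS-70654 replicate 2 (0.37 and 0.82). The direction was kept in all of these. With every member thinned to 3000 UMIs before summing, Gp5 (-1.43, adjusted p = 0.032), Treml1 (-0.75), Slamf1 (-0.65, adjusted p = 0.39) and Ptger3 (-0.96) were not called and Selp was too low to be tested. Without members holding 10 or more neutrophil granule UMIs the calls of Treml1 (-0.66) and Ptger3 (-0.78) were lost, with members chosen after thinning those of Selp (-1.07), F2r (0.81) and Ptger3, and with at least 5 Pf4 UMIs those of Slamf1 (-1.01) and Ptger3 (-0.93).

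The larger share of low-Pf4 cells in IACS-70654 ran beside these falls. Among members with 50 or more Pf4 UMIs, pooled by group and given with no test, Vwf was at 224 CPM in WT, 261 CPM in vehicle and 150 CPM in IACS-70654. Selp was at 42.1, 43.6 and 21.0 CPM and Slamf1 at 64.7, 77.0 and 40.7 CPM. Gp9 was at 107, 100 and 87.9 CPM. In the same cells Cd9 was at 725, 739 and 1576 CPM and Gata2 at 90.3, 88.6 and 173 CPM. Plek, the pleckstrin of platelet secretion, which was not called over all members in any comparison, was there at 531, 420 and 772 CPM. Pf4 was a gene of the rule, and cells of this class had median depths of 7010 and 7441 UMIs in IACS-70654 and 9977 and 10508 UMIs in vehicle. These levels are therefore a description, and the part of depth in them was not tested.

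The promoters of the called surface and granule genes were read from the RefSeq table of build GRCm38.p6, in which 7 of the 9 genes had an entry. Vwf was among those without one. Shown are the 250 bases before the start of 3 genes that fell and of Cd9, which rose, to set side by side what these oppositely moving genes carry. Capitals mark matches on either strand to GATA motifs (AGATAA or TGATAA) and ETS motifs (CAGGAA or CCGGAA), the words read by GATA and ETS factors of this lineage. RUNX motifs (TGTGGT) were also searched. No motif overlaps another.
Gp5 promoter, chr16:30310782-30311031, minus strand: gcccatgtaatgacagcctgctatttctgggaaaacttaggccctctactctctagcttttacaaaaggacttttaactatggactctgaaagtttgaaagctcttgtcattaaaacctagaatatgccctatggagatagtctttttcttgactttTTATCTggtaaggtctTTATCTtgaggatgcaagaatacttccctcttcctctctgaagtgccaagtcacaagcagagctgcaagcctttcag
Slamf1 promoter, chr1:171766882-171767131, plus strand: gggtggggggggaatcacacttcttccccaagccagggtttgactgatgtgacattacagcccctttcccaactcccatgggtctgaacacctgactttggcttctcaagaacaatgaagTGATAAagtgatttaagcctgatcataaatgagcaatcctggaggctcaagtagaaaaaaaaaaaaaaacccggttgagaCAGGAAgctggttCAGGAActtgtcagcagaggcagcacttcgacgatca
Selp promoter, chr1:164115014-164115263, plus strand: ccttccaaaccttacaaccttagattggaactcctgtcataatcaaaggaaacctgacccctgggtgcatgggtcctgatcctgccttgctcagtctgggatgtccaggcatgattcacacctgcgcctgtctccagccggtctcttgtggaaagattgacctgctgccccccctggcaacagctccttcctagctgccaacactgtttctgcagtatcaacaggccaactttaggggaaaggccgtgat
Cd9 promoter, chr6:125494761-125495010, minus strand: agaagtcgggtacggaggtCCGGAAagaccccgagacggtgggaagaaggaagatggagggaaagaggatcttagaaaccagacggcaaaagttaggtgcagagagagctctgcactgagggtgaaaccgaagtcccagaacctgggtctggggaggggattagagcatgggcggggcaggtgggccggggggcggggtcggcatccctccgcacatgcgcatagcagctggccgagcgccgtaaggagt
The Gp5 window holds 2 GATA matches, 93 and 77 bases before the start. The Slamf1 window holds 1 GATA match at 130 bases and 2 ETS matches at 50 and 37 bases. The Cd9 window holds 1 ETS match, 231 bases before the start, and the Selp window none of the 3 motifs. Of the 7 genes, 2 held a GATA, 4 an ETS and 1 a RUNX match, where 16.6%, 35.1% and 14% of all 32851 promoter windows did.

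Among 18 transcription factors of the lineage, 2 rose and 0 fell, where 1.03% of all genes rose and 1.61% fell, and the median was 0.18 against 0.01 over all genes. Gata2, which marks the early stages of the lineage, was at 99.3 and 69.9 CPM in vehicle and 155 and 150 CPM with IACS-70654 (0.75 ± 0.18, adjusted p = 0.0056), and Meis1, a homeobox factor of stem cells and megakaryocytes, at 561 and 672 CPM against 912 and 848 CPM (0.55 ± 0.11, adjusted p = 0.00057). WT lay between vehicle and IACS-70654 for Gata2, at 118 and 134 CPM. Runx1 was at 831 and 796 CPM against 1078 and 1164 CPM, with an adjusted p of 0.0016 but a change of 0.46 ± 0.10, short of the limit of 0.5. Gata1, at 52.0 and 58.3 CPM against 47.9 and 30.6 CPM, Fli1 and Nfe2 were not called (-0.40, 0.12 and -0.24). The call of Gata2 was lost without any 1 of the 4 libraries compared (0.62 to 1.14) and with members chosen after thinning (0.60) or thinned before summing (0.71), and that of Meis1 without vehicle replicate 1 (0.40) or IACS-70654 replicate 1 (0.49), or with Pf4 and Itga2b alone (0.45).

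Rab27b, a GTPase of granule secretion, was the 1 called gene of 20 tested for cytoskeleton and platelet formation. It was at 199 and 171 CPM in vehicle and 320.5 and 337 CPM with IACS-70654 (0.79 ± 0.14, adjusted p = 0.00017) and was called without any library in turn, but not with members thinned before summing (0.70, adjusted p = 0.023). Rasgrp2, the exchange factor that activates Rap1, was the 1 called of 19 signaling genes and fell by 0.67 on the log2 scale, a call lost without any 1 of the 4 libraries (-0.82 to -0.61). Rap1b itself, at 1442 and 1469 CPM against 1395 and 1620 CPM, changed by 0.06 ± 0.09. Cdk6, a G1 kinase, was at 625 and 719 CPM against 1001 and 1028 CPM and rose by 0.62 ± 0.10 (adjusted p = 5.2e-05), the 1 called of 14 G1/S and endomitosis genes, with the call lost without vehicle replicate 1 (0.51). Of 50 G2/M genes only Cks1b fell (-0.58 ± 0.14, call lost at -0.67 to -0.45 without either vehicle library or IACS-70654 replicate 1), and of 42 S phase genes 0 were called. Their medians were -0.13 and -0.07 and took either sign over 19 settings, from -0.42 to 0.17 and from -0.19 to 0.06. Cks1b was also not called with DESeq2, with members chosen after thinning or thinned before summing, without members holding neutrophil granule UMIs or with Pf4 and Itga2b alone (-0.60 to -0.47), and Rasgrp2 not with DESeq2, members thinned before summing or at least 5 Pf4 UMIs (-0.84 to -0.64).

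Outside the lineage lists, the largest falls were those of Lim2 (-3.34 ± 0.54), Gdf3 (-2.76 ± 0.53), Apoe, Mylk (-2.37 ± 0.45), a myosin kinase, Adarb1 (-2.29 ± 0.50) and Bex4 (-2.14 ± 0.28), each without overlap between the groups. Apoe had the smallest adjusted p of these, 1.1e-11, at 176 and 256 CPM in vehicle and 29.3 and 43.1 CPM with IACS-70654, 5.64-fold lower. Slpi, a protease inhibitor, Nkg7, the coagulation factor gene F10, Dok2 and Usp40 fell by 2.00, 1.95, 1.92, 1.59 and 1.57. Among the rises, the nuclear long noncoding RNA Malat1 was at 6194 and 6018 CPM in vehicle, 6105 and 6076 CPM in WT and 13824 and 14345 CPM with IACS-70654, 2.32-fold higher (1.21 ± 0.05, adjusted p = 5.6e-22). Txnip, the thioredoxin-binding regulator of glucose uptake, was at 48.5 and 15.5 CPM against 161 and 138 CPM (1.91 ± 0.24, adjusted p = 4.5e-07). Malat1, Txnip, Apoe, Lim2, Bex4, Slpi, Nkg7, Dok2 and Usp40 were called without each library in turn, with Txnip at 1.62 to 3.27, highest without vehicle replicate 1, and Nkg7 at -2.94 to -1.51, lowest without IACS-70654 replicate 1. With members thinned before summing, Lim2 (-3.18, adjusted p = 0.014), Bex4 (-1.66, adjusted p = 0.028), Usp40 (-1.01, adjusted p = 0.12) and F10 (-1.56) were not called. Gdf3 and Mylk lost their calls without vehicle replicate 1 or IACS-70654 replicate 1 (-2.47 to -2.31 and -2.58 to -1.71), Adarb1 without vehicle replicate 2 or IACS-70654 replicate 1 (-2.05 to -2.03), and F10 without vehicle replicate 1 (-1.94). Chl1 (2.85 ± 0.65), Limd2 (2.25 ± 0.48), Ggta1, Glcci1, Atrnl1 and Dpf3 (1.60 ± 0.41) rose from levels of 3.46 to 15.5 CPM in the vehicle libraries, and each lost its call without vehicle replicate 1 and without 1 or both of the IACS-70654 libraries, at 1.08 at the lowest for Ggta1. With members chosen after thinning, none of these 6 was called (0.59 to 1.92), nor was F10 (-1.23), and without members holding neutrophil granule UMIs Mylk (-1.64) and Adarb1 (-1.91) were not.

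Single members of other lists were called, against 1.03% up and 1.61% down over all genes. Mxd4, a partner and antagonist of the Myc network, rose by 1.14 ± 0.28 as 1 of 8 tested, and the immediate early genes Jun and Ier2 rose by 0.54 ± 0.12 and 0.95 ± 0.18 as 2 of 11. The interferon-inducible Ifitm1 and Ifitm3 fell by 1.17 and 0.71 as 2 of 8 on a list with a median of 0.01, and 0 of 12 MHC class I genes were called. The calls of Mxd4 were lost without any 1 of the 4 libraries (0.97 to 1.18), that of Ifitm1 with members thinned before summing (-0.79), those of Ier2 without vehicle replicate 1 (1.00) or IACS-70654 replicate 2 (0.80) and those of Jun without either vehicle library or IACS-70654 replicate 1 (0.45 to 0.56). Among cytoplasmic ribosomal proteins 80 were tested, 0 were above 0 and 3 fell (Rpl35, Rps27l and Rps2), with a median of -0.30. Rps27l lost its call without vehicle replicate 1 (-0.58) and Rps2 without IACS-70654 replicate 2 (-0.48). The summed ribosomal level was 300399 and 295101 CPM in WT, 281730 and 287641 CPM in vehicle and 254395 and 242721 CPM in IACS-70654. The lower ribosomal level ran beside the lower UMI count per member in the IACS-70654 libraries, and the part of depth in it was not tested. The median of the 80 genes lay between -0.35 and -0.16 over 19 settings. The targets of the drug, Crebbp and Ep300, were at 94.7 and 89.4 CPM against 136 and 150 CPM and at 46.2 and 42.7 CPM against 72.3 and 86.2 CPM, and were not called (0.62 and 0.80, adjusted p = 0.031 and 0.037). Of 16 chromatin enzymes 0 were called.

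The 4 genes with the largest rise, Iglc2, Igkc, Ighm and Jchain, are immunoglobulin genes of plasma cells, and nearly all of their UMIs came from 1 cell in each library. Igkc was at 91.2 and 73.8 CPM in vehicle and 2915 and 4066 CPM with IACS-70654. In IACS-70654 replicate 1, 1 cell held 4324 immunoglobulin UMIs, 28.4% of its 15239 UMIs and 95.6% of those in the library's members. In replicate 2, 1 cell held 4090, 54.0% of its 7569 UMIs and 96.9% of those in the members. Both met the rule with 1 Itga2b UMI and 3 or 30 Pf4 UMIs, and Gp9 was at 0 in both. The next highest member of the 2 libraries held 11, and the median was 1 in each of the 6 libraries. Mcpt8 and Tox rested on single cells likewise, with 63 and 72 UMIs in 1 cell. Without the members rich in immunoglobulin or in basophil and mast cell UMIs, a setting chosen after the data were seen, 198 genes were called, 190 of them among the 210, and Igkc, Ighm and Jchain were no longer called. Without the members with 10 or more neutrophil granule UMIs 246 genes were called, 163 of them among the 210.

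**Figure D4:**
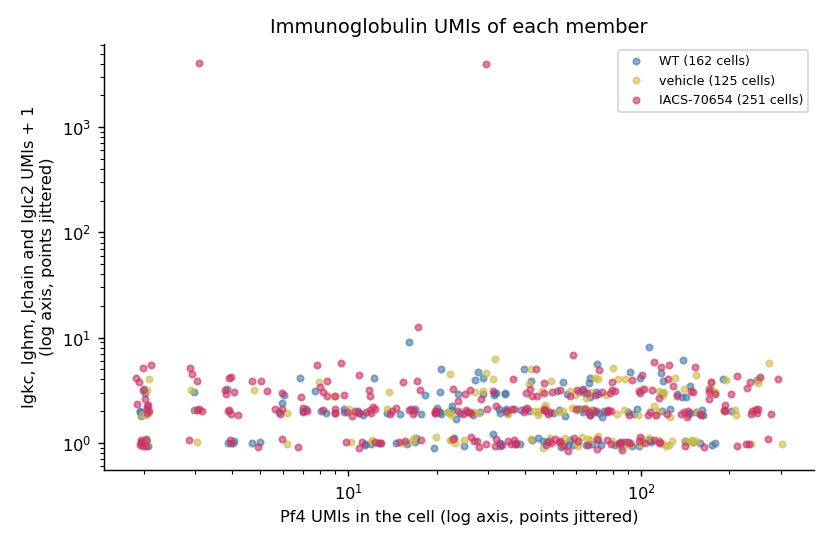
Each point is 1 of the 538 megakaryocyte progenitors, with its Pf4 UMIs on the x axis and its immunoglobulin UMIs plus 1 on the y axis (both log, points jittered), colored by group. In IACS-70654, 2 members lie at 4324 and 4090 immunoglobulin UMIs, and all others of the 3 groups are at 11 or fewer.

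IACS-70654 against WT gave 346 called genes (4.35%), 132 up (1.66%) and 214 down (2.69%), with 180 called without WT replicate 1 and 201 without IACS-70654 replicate 2. The comparison has the treated libraries in common with the one above and sets tumor and drug together against neither. Vwf fell by 1.07, Slamf1 by 1.23 and Gp5 by 1.20. Treml1 changed by -0.33 ± 0.21 and was not called. Cd9 rose by 0.75 ± 0.10 from 578 and 580 CPM, and Itgb3 was called here, with 116.5 and 67.9 CPM in WT and a rise of 1.00 ± 0.18 (adjusted p = 8.0e-05, call lost without WT replicate 2, at 0.69). Mmrn1, an alpha granule protein, rose by 0.90 ± 0.23, Prkca, protein kinase C alpha, by 0.96 ± 0.10 and Rgs10 by 0.71 ± 0.14. Tal1 and Cbfa2t3, partners in one regulatory complex, rose by 0.69 ± 0.16 and 0.58 ± 0.14, and the adhesion linker Vcl by 0.63 ± 0.15. Ppbp, the platelet basic protein, fell by 2.68, but 1 cell held 10 of its 13 UMIs in WT replicate 2, and the call was lost without any 1 of the 4 libraries (-3.21 to -2.18). So was that of Mmrn1 (0.80 to 0.99). Gp5 was lost without WT replicate 1 or either IACS-70654 library (-1.21 to -1.01), Tal1 without WT replicate 1 or either IACS-70654 library (0.57 to 0.74), Cbfa2t3 and Vcl without WT replicate 1 or IACS-70654 replicate 2 (0.46 to 0.47 and 0.46 to 0.52), and Rgs10 without WT replicate 2 or IACS-70654 replicate 2 (0.57 to 0.62). With members thinned before summing, Slamf1 (-0.80), Gp5 (-1.26), Mmrn1 (1.05), Tal1 (0.65), Cbfa2t3 (0.68), Vcl (0.76) and Rgs10 (0.63) were not called, and with DESeq2 neither were Slamf1 (-1.25), Mmrn1, Tal1, Cbfa2t3, Vcl and Itgb3 (1.01).

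Apoe showed the largest fall of the genes named in this comparison, from 361 and 324 CPM in WT to 29.3 and 43.1 CPM (-3.27 ± 0.18, adjusted p = 1.8e-17), and was called without each library in turn. Among cell cycle genes, the S phase genes Mcm3 (-0.79 ± 0.18), Pcna (-0.54 ± 0.14), Cdca7 (-0.73 ± 0.18) and Rfc2 (-0.84 ± 0.15) fell, as 4 of 42, and the G2/M genes Nusap1 (0.78 ± 0.18), Mki67 (0.85 ± 0.18) and Ccnb2 (0.68 ± 0.18) rose, as 3 of 50. The medians were -0.39 and 0.32, against 0.02 over all genes, and ranged from -0.54 to -0.26 and from -0.01 to 0.57 over 19 settings. Cyclin D2 (Ccnd2) was at 237 and 241 CPM in WT, 164 and 171 CPM in vehicle and 137 and 79.3 CPM in IACS-70654, a fall of 1.09 against WT. Mki67 lost its call without IACS-70654 replicate 2 (0.36), Rfc2 without WT replicate 1 (-0.64), Mcm3 and Nusap1 without WT replicate 2 or IACS-70654 replicate 2 (-0.69 to -0.66 and 0.62 to 0.63), Cdca7 and Ccnb2 without either WT library or IACS-70654 replicate 2 (-0.73 to -0.56 and 0.45 to 0.76) and Pcna without WT replicate 1 or either IACS-70654 library (-0.57 to -0.40). Among 80 ribosomal proteins 10 fell, where 2.69% of all genes fell, with a median of -0.36. Of these 10, the calls of Rpl22, Rpl36, Rpl38, Rpl4, Rps2, Rps23 and Rps6 were lost without IACS-70654 replicate 2 (-0.49 to -0.44), that of Rpl36 also without WT replicate 1 (-0.47), and that of Rps27l without WT replicate 2 or IACS-70654 replicate 1 (-0.50 to -0.45). With DESeq2 the 4 S phase and 3 G2/M genes were not called (adjusted p from 0.010 to 0.27). The amino acid and one-carbon enzymes Asns and Mthfd2 fell by 1.57 and 1.56, both lost without WT replicate 1 (-1.42 and -1.35). Angpt1 fell by 0.61, at 1336 and 1536 CPM in WT, 992 and 894 CPM in vehicle and 992 and 873 CPM in IACS-70654, so that the vehicle and treated values lay side by side below WT.

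Whether a change was larger in the megakaryocyte progenitors than in the other c-Kit+ cells was tested by an interaction of cell class and group, with the library as a block, over 14897 genes. Between IACS-70654 and vehicle 108 genes were called (0.725%), and between vehicle and WT 60 (0.403%). Without vehicle replicate 1 the counts were 30 and 11, and without WT replicate 2 the latter was 19. Apoe fell further in the members, by -1.07 ± 0.20 beyond its change of -1.43 in the other cells (adjusted p = 5.3e-05). Bex4 and Usp40 fell in the members while the other cells changed by 0.43 and 0.18, and Gata2 and Ier2 rose in the members with -0.18 and 0.10 in the other cells. Malat1 rose in both, by 0.56 more in the members (other cells 0.66, adjusted p of the difference 2.3e-10). Vwf changed by -1.45 in the other cells, where it is scarce, and no difference was called (-0.06, adjusted p = 0.99). Gp5 changed by -0.50 in the other cells, and its interaction, -0.86, was not called (adjusted p = 0.31). Nor was one called for Cd9 (0.17) or Txnip (0.90, adjusted p = 0.013).

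**Figure D5:**
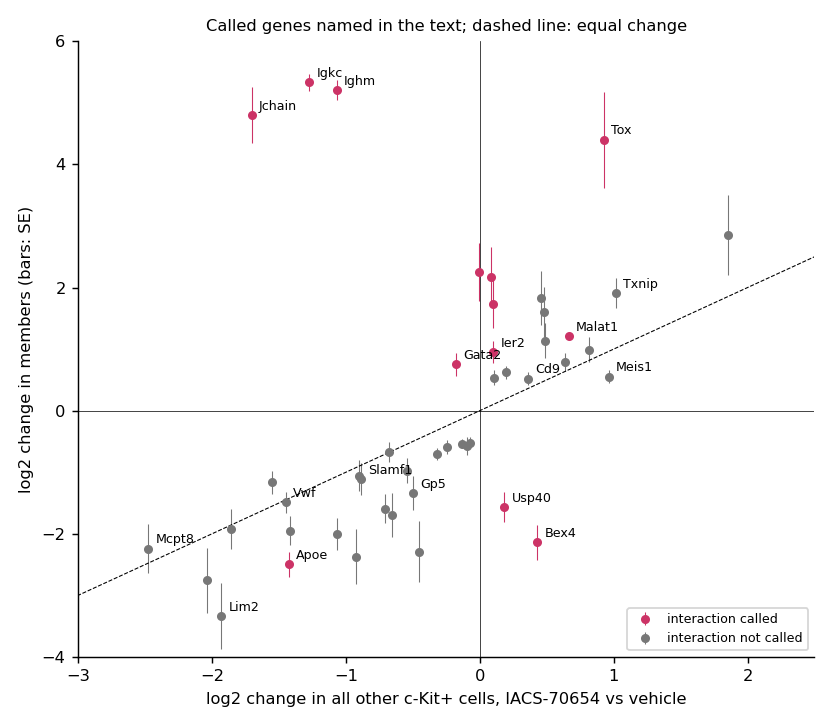
For the named genes called between IACS-70654 and vehicle, the log2 change in all other c-Kit+ cells (x axis) and in the megakaryocyte progenitors (y axis, bars for 1 SE), with the dashed line at equal change. Red points have a called interaction. Vwf and Mcpt8 lie near the line, while Bex4 and Usp40 lie below it and Malat1, Gata2 and the immunoglobulin genes above it.

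Between vehicle and WT the members differed from the other c-Kit+ cells in several lineage genes. Gata1 changed by 0.35 ± 0.29 in the members and -1.06 in the other cells, with an interaction of 1.41 (adjusted p = 0.0019). Treml1 changed by 0.65 ± 0.20 against -0.64 (interaction 1.30, adjusted p = 0.0024), and Zfpm1, the GATA1 cofactor FOG1, by 0.04 ± 0.13 against -0.84 (interaction 0.89, adjusted p = 6.4e-08). None of these 3 was called within the members, and the other cells differ in their make-up between the groups, as the shares of neutrophil-committed cells above show. Ube2c was called in the members and changed by -0.05 in the other cells (interaction 0.95, adjusted p = 4.4e-09). Against erythroid progenitors alone, 3 interactions of 11395 were called in this comparison (0.0263%), and 239 between IACS-70654 and vehicle (2.1%).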

How the data were processed

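Single-cell 3′ libraries were made by the authors with sample multiplexing and processed with Cell Ranger on mm10, and Seurat is named for their analysis. The deposited matrices hold raw UMI counts of 32285 genes per cell barcode. From these counts, cells with 201 to 5999 genes and at most 10% mitochondrial UMIs were kept, members were chosen by the limits given above, and their UMIs were summed per library. No doublet caller was run. Instead, results were recomputed without members over the 95th percentile of UMIs and without those with 10 or more neutrophil granule UMIs. The percentile was that of all kept cells of the library. It took out 0 members in WT replicate 1 and at most 5 in any library, so it can show little about doublets. Genes were filtered by filterByExpr, scaled by TMM and tested with edgeR 4.0.16 in R 4.3.3 across all 3 groups, with Benjamini-Hochberg adjustment over 7958 genes. DESeq2 1.42.0 was an alternative. Shares and medians were compared by exact 2-sided permutation tests (SciPy 1.17.1, Python 3.11.15), and figures were drawn with matplotlib 3.10.9. The fit was tested on simulated data. Named genes were the 12 largest rises and 12 largest falls called without overlap and over 20 CPM, every called gene of the lists, and a short list of lineage, chromatin and drug-response genes. Members and lists were chosen with earlier results of these data known. Groups came from the labels. 1 named gene is not reported here.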

Additional observations from a re-analysis of the deposited data

Results flagged for a closer look

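Changes that differed between the megakaryocyte progenitors and the other c-Kit+ cells, by the interaction test over 14897 genes, are given on the log2 scale as the change in the members minus that in the other cells. Between vehicle and WT the differences were 0.95 for Ube2c and 0.58 for Arl6ip1. Between IACS-70654 and vehicle they were 0.92 for Gata2, 0.83 for Ier2, 0.56 for Malat1, -1.07 for Apoe, -2.57 for Bex4 and -1.76 for Usp40. The genes Limd2, Ggta1 and Atrnl1, all of low level, differed by 2.29, 2.11 and 1.65. Igkc, Ighm and Jchain differed by 6.57, 6.33 and 6.46, values that rest on 1 cell in each IACS-70654 library.

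The CD45+ libraries of the same groups, used in no comparison here, also held cells that met the rule. Their number was 12 and 7 in the IACS-70654 libraries (of 4865 and 6154 kept cells), 3 and 1 in WT and 0 and 2 in vehicle, where a count of 0 allows a share of up to 0.0587%. These cells had median depths of 11779 to 25468 UMIs per library. Over all kept CD45+ cells the medians were 6534 and 6597 UMIs in IACS-70654, 4113 and 4277 in WT and 5331 and 5328 in vehicle. The rule uses raw UMIs, and the part of depth in these counts was not tested.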

How the results depend on the processing

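Of the main counts and shares recomputed under each alternative, 101 kept their direction and, for counts, lay within 1.5 times the reported one, 28 moved further and 2 reversed. Sizes varied among the 101: with Pf4 and Itga2b alone the share differed by -1.12 points between IACS-70654 and WT and by 0.443 between IACS-70654 and vehicle, without neutrophil-committed cells by -0.641 between vehicle and WT (exact permutation p = 1), and the S or G2/M share between IACS-70654 and WT by -13.7 points without thinning and -1.56 thinned to 5000 UMIs, against -6.26. The cause was not tested unless stated. Between vehicle and WT, the 8 calls became 26 with no filter on low counts, 1 with DESeq2, 19 without the members richest in UMIs, 4 without members holding neutrophil granule UMIs, 2 with members thinned before summing, and 23 at an adjusted p under 0.05 with no minimum change. With Pf4 and Itga2b alone the count was 24, and with at least 5 Pf4 UMIs it was 0 by edgeR, both chosen after seeing the data. For comparison, 612 genes had an unadjusted p under 0.05 in the reported fit. Between IACS-70654 and vehicle, the 210 calls became 77 with DESeq2, 81 with members thinned before summing and 591 at an adjusted p under 0.05. Between IACS-70654 and WT, the 346 calls became 114 with DESeq2, 226 with members chosen after thinning, 128 with members thinned before summing, 522 with Pf4 and Itga2b alone and 865 at an adjusted p under 0.05. Leaving out 1 library gave 8 to 16, 91 to 264 and 180 to 437 calls. The interaction counts became 239 against erythroid progenitors and 62 against stem-like cells between IACS-70654 and vehicle, and 3 and 24 between vehicle and WT, with ranges of 30 to 98 and 11 to 67 when 1 library was left out. The difference in share between IACS-70654 and WT, -0.154 percentage points, reversed to 0.592 without neutrophil-committed cells and to 0.110 without IACS-70654 replicate 1, in a range of -0.417 to 0.110 with 1 library left out. Of 2056 values for named genes, 1676 kept their call, 377 lost it and 3 reversed: Mcpt8 at -0.011 between vehicle and WT and 0.25 between IACS-70654 and vehicle, both without vehicle replicate 1 (ranges of -0.011 to 2.89 and -2.66 to 0.25 with 1 library left out), and Tox at -0.72 between IACS-70654 and WT with members chosen after thinning. Vehicle replicate 2 held 27 members.

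Correlations of 0.0229, -0.0619 and -0.0241 between the deviations of same-numbered libraries over 7958 genes showed no pairing by replicate number. Counting error in genes of low level pulls such values toward 0, so they cannot show that there was none. With the replicate block, 6, 183 and 317 genes were called in the 3 comparisons.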
